A study of Fragaria x ananassa with 6 samples.

Results

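The 100 IDs that took the most sequencing counts in the receptacle of control strawberry plants were followed into FaWRKY71-RNAi receptacle. They were chosen by their mean CPM (counts per 1000000 counts of a library) over the 3 Control libraries, out of 28588 IDs in the count table. By edgeR's adjusted p, 71 of the 100 were lower and 4 were higher in FaWRKY71-RNAi receptacle, where 24.2% of all IDs tested were called lower and 30.1% higher. Together the 100 held 17.5% of the counts there, against 22.4% in Control receptacle. The control values that enter these comparisons also chose the list, which favours lower values in FaWRKY71-RNAi receptacle. The choice left out 7 IDs, of which 3 (FvH4_5g01170.1, FvH4_7g01160.1 and FvH4_7g33840.1) would otherwise have been among the 100. It also left out the 9751 IDs with at most 5 rounded counts over the FaWRKY71-RNAi libraries, none of which was high enough in the controls to enter. The 100 are the IDs with most reads. The count table gives no transcript lengths, so whether they are also the most abundant per molecule was not analysed here.

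The receptacle is the swollen tip of the flower stalk that forms the flesh of a strawberry, while the achenes on its surface are the true fruits. Ripening receptacle is known for strong expression of genes for anthocyanin and aroma synthesis and for loosening of cell walls. In most tissues a small part of the genes supplies a large part of the messenger RNA, so a sequencing library measures shares of a pool that the most abundant transcripts dominate. WRKY proteins are plant transcription factors, many of which act in responses to stress and pathogens. A hairpin RNA against such a gene is cut into small RNAs that direct the breakdown of matching transcripts. No gene names for the IDs are given in the count table, and none could be matched in the reference, so no function is given for any of the 100, and the level of FaWRKY71 itself was not analysed here.

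The plants were Fragaria x ananassa cv Chandler, stably transformed through Agrobacterium tumefaciens strain AGL0. FaWRKY71-RNAi plants (3 libraries) carried pFRN with a conserved piece of the FaWRKY71 coding region, and Control plants (3 libraries) carried pFRN-empty. Both genotypes thus carried the silencing vector, and none of the plants was treated. The sources used here name neither the promoter that drives the hairpin nor the fruit stage nor the number of transgenic lines. A difference in stage or line cannot be told apart from genotype. Where the libraries of a genotype came from one line or source, the p-values measure only the spread within it.

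Libraries held 8385218 to 10000538 counts. The lowest count of a member was 9317 in a Control library and 434 in any library. Counting error was small at the mean counts of the 100 over all 6 libraries, with an expected coefficient of variation between 0.271% and 1.16%. It is larger in single libraries with fewer counts, such as FaWRKY71-RNAi replicate 1 for FvH4_7g09000.1, with the 434. In the controls the mean CPM of the members spanned 14330 ± 123 for FvH4_6g50700.1, 3592 ± 166 for the tenth ID, FvH4_2g09940.1, and 1035 ± 33.7 for the last (SD, n = 3). The edge of the list was not sharp. The last IDs inside were FvH4_4g34250.1 at 1045 ± 40.1 CPM and FvH4_5g06190.1 at 1035 ± 33.7 CPM in the controls (SD, n = 3). The first outside were FvH4_6g21280.1 at 1034 ± 508 CPM and FvH4_7g01370.1 at 1024 ± 33.8 CPM (SD, n = 3). FvH4_6g21280.1 had 897, 608 and 1597 CPM in the single Control libraries, so its place beside the list rests on 1 library.

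The 100 IDs held 17.9%, 16.7% and 17.9% of the counts in the FaWRKY71-RNAi libraries, against 22.5%, 22.4% and 22.2% in the Control libraries. Every FaWRKY71-RNAi library was below every Control library. The mean shares were 17.5% ± 0.69 and 22.4% ± 0.15 (SD, n = 3 each), a difference of -4.86 percentage points (two-sided exact permutation p = 0.1, which 3 libraries against 3 cannot go below). The control values chose the IDs, so part of this difference may follow from the choice. When each library was instead given its own 100 highest IDs, those took 21.3%, 18.6% and 20.5% in FaWRKY71-RNAi libraries and 22.5%, 22.4% and 22.3% in the Control libraries. On that measure the means were 20.2% ± 1.39 and 22.4% ± 0.10 (SD, n = 3 each; exact permutation p = 0.1), and the difference was smaller, at -2.28 points. FaWRKY71-RNAi replicate 2 had the lowest share by either measure.

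**Figure D1:**
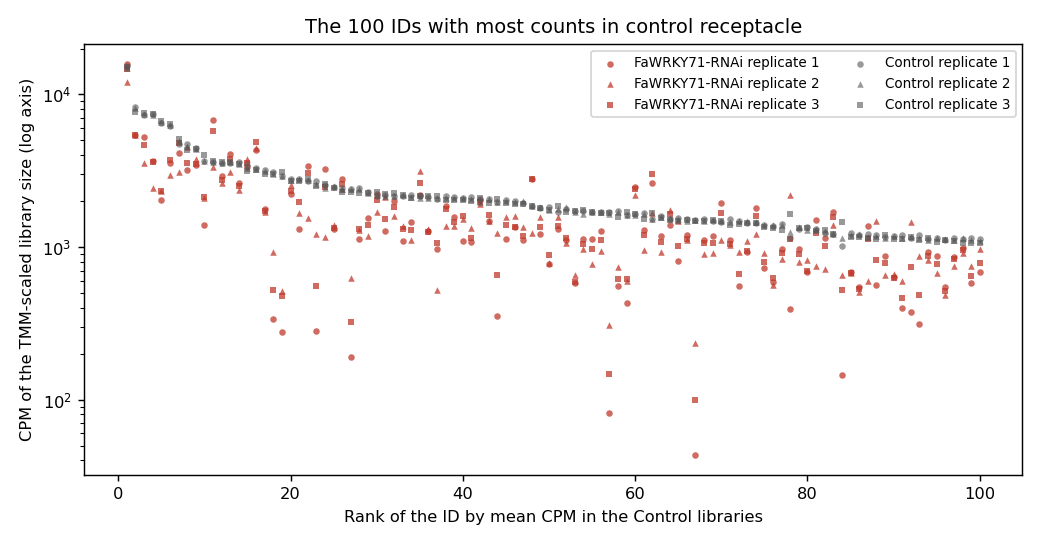
Each of the 100 IDs stands at its rank by mean CPM in the Control libraries (x axis), with its CPM of the TMM-scaled library size in each library on a log axis (y axis): FaWRKY71-RNAi in red and Control in grey. The grey points lie close together at all but 2 ranks, 78 (FvH4_5g04430.1) and 84 (FvH4_2g01940.1), while the red points scatter and lie mostly below, down to 43.2 for FvH4_7g09000.1.

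The fall was spread over many IDs. Mean CPM was lower in the FaWRKY71-RNAi libraries for 82 of the 100, with a summed difference of -59521 CPM, and higher for 18, with a summed difference of 10899 CPM. The 10 IDs with the largest falls made up 40.2% of the summed falls, and 6 of them were among the first 10 of the list. The largest single fall was 3892 CPM, of FvH4_1g08760.1. By the order of the control list, IDs beyond rank 2000 held 36.9% ± 0.40 of the counts of FaWRKY71-RNAi libraries and 27.6% ± 0.07 of those of Control libraries (SD, n = 3 each). The control values set that order, so part of this difference may follow from it. That order also leaves out the IDs with at most 5 rounded counts over the FaWRKY71-RNAi libraries. Counts of a library are shares of a whole, so in these counts less of the 100 transcripts and more of the others cannot be told apart. Nor can fewer cells of a type and less RNA per cell in such bulk tissue.

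For single IDs the genotypes were compared with edgeR's quasi-likelihood test over all 15547 IDs that passed the filter on low counts, and a call required a p, adjusted by Benjamini and Hochberg's method, under 0.05. Levels below are scaled CPM, that is CPM with library sizes scaled by TMM, the trimmed mean of M-values, and fold changes are FaWRKY71-RNAi over Control from the same fit. All of the 100 passed the filter. The 71 lower and 4 higher calls stand beside 24.2% and 30.1% of all IDs tested. The median log2 fold change was -0.55 over the 100 and 0.03 over all IDs tested. Lower calls with a fitted change of 2-fold or more numbered 21, against 9.29% of all IDs, and none of the 100 rose as much. Higher calls of that size made up 6% of the IDs tested at control ranks 101 to 200 and 1.67% at ranks 201 to 500. At ranks 2001 to 18830 they made up 20.4%. The control values that set these ranks also enter the calls. All 3 FaWRKY71-RNAi libraries lay below all 3 Control libraries for 74 of the 100, against 30.8% of all IDs. The median fall of the 71 was 1.66-fold, close to the 1.76-fold of all IDs called lower.

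**Figure D2:**
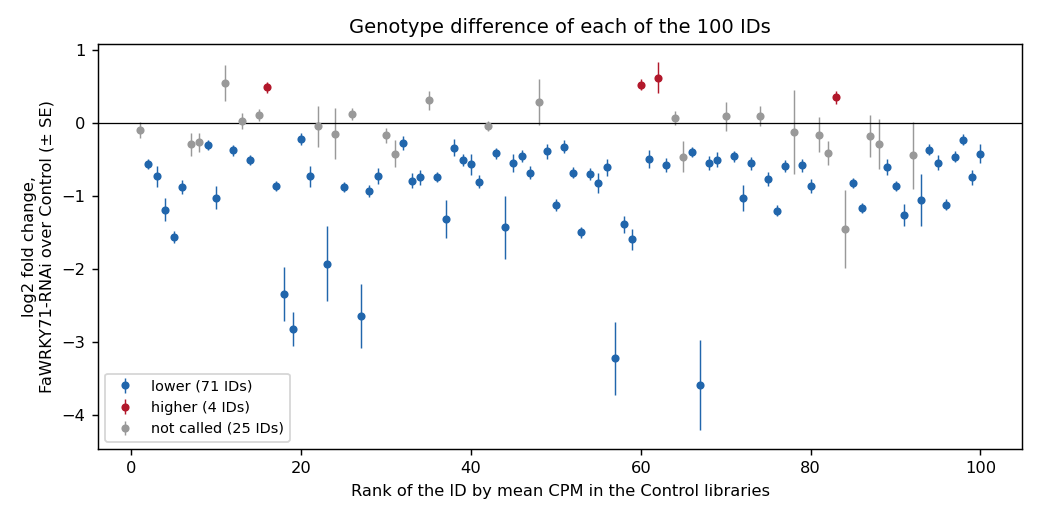
The log2 fold change of FaWRKY71-RNAi over Control with its standard error (y axis) is drawn for each of the 100 IDs at its control rank (x axis), coloured by edgeR call. The 71 lower IDs lie along the whole list, the 4 higher ones stay below a log2 fold change of 1, and 5 IDs lie below -2.

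These counts share the control libraries with the choice of the IDs, which favours lower calls. The comparison was therefore repeated with lists chosen by 1 Control library and genotypes compared without it. The 100 IDs chosen by Control replicate 1 had 63 lower and 2 higher calls. In that smaller comparison 18.2% of all IDs were called lower and 25.2% higher. Those chosen by Control replicate 2 had 61 lower and 2 higher calls, where 18.1% of all were lower and 25.1% higher. Those chosen by Control replicate 3 had 61 lower and 4 higher calls, where 18.3% of all were lower and 25.2% higher. The 3 lists shared 99, 99 and 97 IDs with the list of 100, so they are not separate sets, and their medians ran from -0.58 to -0.55 on the log2 scale. Choosing the 100 highest IDs of the FaWRKY71-RNAi libraries gave a different balance, with 42 lower and 30 higher calls and a median log2 fold change of -0.16. Over the mean of all 6 libraries, 57 of the 100 highest were lower and 16 higher. For both lists 24.2% of all IDs tested were called lower and 30.1% higher. The 30 higher calls of the first were thus close to the share over all IDs. Lower calls outnumbered higher ones with each choice, but by how much depended on which genotype chose the list.

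The fall also did not stop at rank 100. Among ranks 101 to 200 by control CPM, 70 IDs were lower and 12 higher, with a median log2 fold change of -0.56. Among the 300 IDs of ranks 201 to 500, 60.3% were lower and 5.33% higher. From rank 1001 to 2000 these were 45.4% and 15.0%, and beyond rank 2000 they were 19.5% and 33.1%, so the balance there was the opposite one. Within the 100, the first 10 had 7 lower and 0 higher calls, ranks 11 to 25 had 9 and 1, ranks 26 to 50 had 19 and 0, and ranks 51 to 100 had 36 and 3. The control values that order the bands also enter the calls, which favours lower calls in the first bands and higher calls in the last. The order also leaves out the IDs with at most 5 rounded counts over the FaWRKY71-RNAi libraries. The difference between these bands was not tested.

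**Figure D3:**
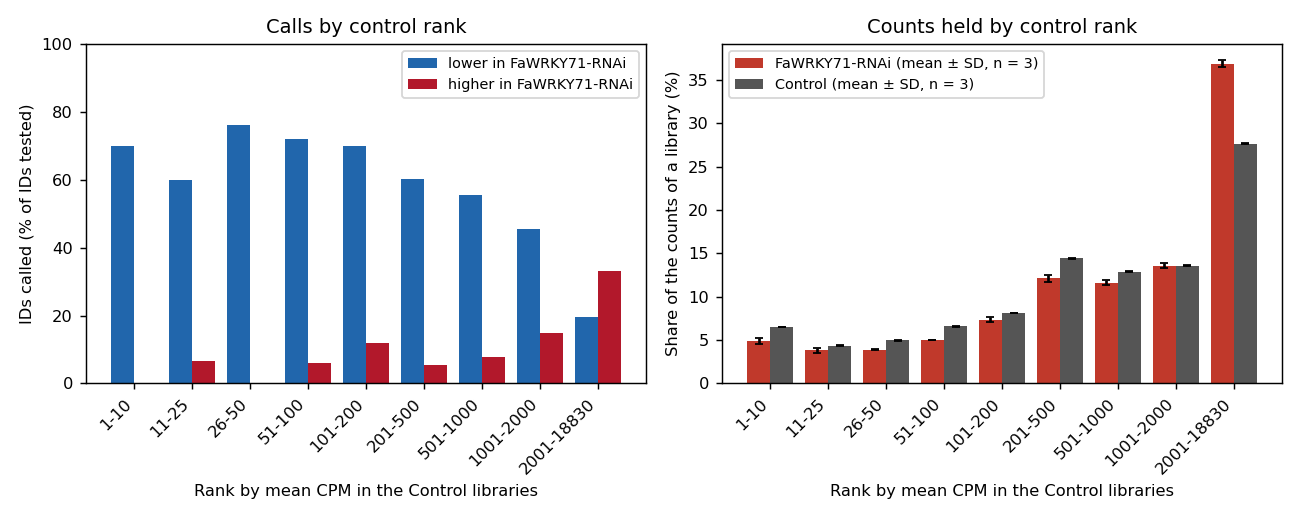
The left panel gives the IDs called lower (blue) and higher (red) as a percent of the IDs tested, and the right panel the share of a library's counts (mean ± SD, n = 3 libraries per genotype), both by band of control rank. Lower calls fall off from 70% in ranks 101 to 200 to 19.5% beyond rank 2000, where FaWRKY71-RNAi libraries held 36.9% of the counts and Control libraries 27.6%. The control values that order the bands also enter both panels.

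The ID with most counts, FvH4_6g50700.1, stayed first in both genotypes and was not called. It had 15935, 11979.8 and 14585 scaled CPM in the FaWRKY71-RNAi libraries, against 15245, 15006 and 15104 in the Control libraries. The genotypes overlapped, with FaWRKY71-RNAi replicate 1 above and replicate 2 below every control (log2 fold change -0.09 ± 0.11 SE, edgeR adjusted p = 0.50). The sign of this small difference was positive with library size alone as the scaling (0.056) and without FaWRKY71-RNAi replicate 2 (0.010). FvH4_5g18330.1 and FvH4_2g37690.1, seventh and eighth in the controls, were not called either. FvH4_5g18330.1 had 4135, 3099 and 4809.6 scaled CPM in FaWRKY71-RNAi libraries and 4707, 4943 and 5103 in the Control libraries (log2 fold change -0.29 ± 0.15 SE, edgeR adjusted p = 0.15). FvH4_2g37690.1 had 3207, 4556 and 3561 scaled CPM in FaWRKY71-RNAi libraries and 4714, 4584 and 4307 in the Control libraries (-0.26 ± 0.13 SE, adjusted p = 0.13). In the first of these replicate 2 was the lowest FaWRKY71-RNAi library, in the second the highest. FvH4_2g37690.1 was called lower without that replicate (log2 fold change -0.43, edgeR adjusted p = 5.2e-05) and with upper-quartile scaling (-0.37, adjusted p = 0.034).

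The other 7 of the first 10 were called lower in FaWRKY71-RNAi receptacle. The steepest was FvH4_1g08760.1, with 2022, 2339 and 2333 scaled CPM in the FaWRKY71-RNAi libraries, against 6501, 6556 and 6680.1 in the Control libraries. The genotypes lay far apart and each was tight, and the ID was 2.95-fold lower (log2 fold change -1.56 ± 0.08 SE, edgeR adjusted p = 1.7e-05). FvH4_7g25860.1 had 3644, 2434 and 3635 scaled CPM in the FaWRKY71-RNAi libraries, against 7399, 7313 and 7422 in the Control libraries (-1.19 ± 0.16 SE, adjusted p = 0.00077). FvH4_2g09940.1 had 1405, 2081 and 2126 scaled CPM in the FaWRKY71-RNAi libraries, against 3676, 3685 and 4009.9 in the Control libraries (-1.02 ± 0.16 SE, adjusted p = 0.0017). One FaWRKY71-RNAi library stood below the other two in both, replicate 2 for FvH4_7g25860.1 and replicate 1 for FvH4_2g09940.1.

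FvH4_4g24420.1, second in both genotypes, showed a smaller and very even fall. It had 5446, 5430.2 and 5430.4 scaled CPM in the FaWRKY71-RNAi libraries, against 8231, 8153 and 7721 in the Control libraries (-0.56 ± 0.07 SE, edgeR adjusted p = 0.00046). FvH4_7g24120.1 had 3578, 2977 and 3742 scaled CPM in the FaWRKY71-RNAi libraries, against 6165, 6280.4 and 6392 in the Control libraries (-0.87 ± 0.10 SE, adjusted p = 0.00040). The genotypes did not overlap in either. FvH4_4g25620.1 had 5276, 3534 and 4688 scaled CPM in the FaWRKY71-RNAi libraries, against 7378, 7448 and 7519 in the Control libraries (-0.73 ± 0.14 SE, adjusted p = 0.0044). Its deposited counts are fractional in all 6 libraries, those of FvH4_3g33150.1 in 5 and those of FvH4_7g25860.1 in 4. What part reads shared with other IDs have in these levels was not tested. FvH4_3g33150.1 had 3448, 3795 and 3523 scaled CPM in the FaWRKY71-RNAi libraries, against 4425, 4396 and 4419.5 in the Control libraries (-0.30 ± 0.07 SE, adjusted p = 0.0099). This fall, the smallest of the 7 called among the first 10, was not called with library size alone (log2 fold change -0.15, adjusted p = 0.12).

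The deepest 2 falls came from the middle of the list. FvH4_7g09000.1, ID 67 in the controls, had 43.2, 234 and 98.7 scaled CPM in the FaWRKY71-RNAi libraries, against 1513, 1513 and 1476 in the Control libraries. It was 11.99-fold lower (log2 fold change -3.58 ± 0.62 SE, edgeR adjusted p = 0.0042) and ranked 1601 by mean CPM in the FaWRKY71-RNAi libraries, the lowest rank of the 100. Its counts are fractional in 5 libraries. FvH4_2g39450.1, ID 57 in the controls, had 81.8, 309 and 147 scaled CPM in the FaWRKY71-RNAi libraries, against 1689, 1653 and 1671 in the Control libraries. This ID, with whole counts in all 6 libraries, was 9.32-fold lower (-3.22 ± 0.49 SE, adjusted p = 0.0026). In both, FaWRKY71-RNAi replicate 1 was lowest and replicate 2 highest, yet every FaWRKY71-RNAi library was far under every Control library. Without replicate 2 the log2 fold changes were -4.41 for FvH4_7g09000.1 and -3.87 for FvH4_2g39450.1, each more than 1.5 times the fold with all libraries, and without replicate 1 they were -3.19 and -2.89. A further 3 IDs fell at least 4-fold and are named after their values were seen: FvH4_6g13710.1, FvH4_5g34480.1 and FvH4_7g22170.1, at log2 fold changes of -2.82, -2.64 and -2.34. They stood nearer the top, at control ranks 19, 27 and 18. Counts of FvH4_5g34480.1 are fractional in 4 libraries and those of FvH4_7g22170.1 in 6, while those of FvH4_6g13710.1 are whole.

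The 4 IDs called higher were few enough to name, after their values were seen. FvH4_1g23490.1 had 2473, 2197 and 2384 scaled CPM in the FaWRKY71-RNAi libraries, against 1639.7, 1618 and 1638 in the Control libraries, and was 1.44-fold higher (log2 fold change 0.53 ± 0.07 SE, edgeR adjusted p = 0.00099). FvH4_2g05090.1 had 4319, 4489.9 and 4875 scaled CPM in the FaWRKY71-RNAi libraries, against 3293, 3250.0 and 3216 in the Control libraries, and was 1.40-fold higher (0.49 ± 0.07 SE, adjusted p = 0.0014). The genotypes were clearly apart in both, and FvH4_2g05090.1 moved to rank 4 in the FaWRKY71-RNAi libraries, against rank 16 in the controls. FvH4_6g53780.1 averaged 1555 ± 154 scaled CPM in FaWRKY71-RNAi libraries and 1219 ± 8.22 in the Control libraries (SD, n = 3 each; log2 fold change 0.35 ± 0.09 SE, edgeR adjusted p = 0.013). FvH4_4g33940.1 had 2614, 1659.7 and 3004 scaled CPM in the FaWRKY71-RNAi libraries, against 1522, 1531 and 1678 in the Control libraries (0.62 ± 0.21 SE, adjusted p = 0.043), so 1 library of each genotype overlapped. The call of FvH4_6g53780.1 ended with upper-quartile scaling (adjusted p = 0.078), without FaWRKY71-RNAi replicate 3 (0.071) and without any 1 of the Control libraries (0.062 to 0.066). That of FvH4_4g33940.1 ended in 9 alternatives, with adjusted p between 0.056 and 0.14, among them limma, median-of-ratios scaling and 5 of the 6 with a library left out. The number of higher calls was 2 without any 1 of the Control libraries or without FaWRKY71-RNAi replicate 3, 2 with upper-quartile scaling, 7 with library size alone and 11 without FaWRKY71-RNAi replicate 2, where 33.8% of all IDs tested were called higher. In the others this share ran from 24.4% without FaWRKY71-RNAi replicate 3 to 35.0% with library size alone.

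Of the 25 IDs not called, 16 had a negative log2 fold change, and their log2 fold changes ran from -1.45 to 0.55. For 4 of them, named after their values were seen, the genotypes did not overlap, at edgeR adjusted p between 0.063 and 0.090. The FaWRKY71-RNAi libraries lay below the controls for FvH4_2g01940.1, FvH4_6g08600.1 and FvH4_6g45760.1, and above them for FvH4_7g26290.1. How many of all IDs not called had no overlap was not analysed here. The SD over the mean among the FaWRKY71-RNAi libraries was above 30% for 11 of the 25 and for 9 of the 75 that were called. The test itself uses the spread within genotypes, so these counts are a description.

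Which IDs made up the top 100 varied less among Control libraries than among FaWRKY71-RNAi libraries, 2 of which held fewer of the 100 chosen from the others of their genotype than any control did; this difference was not tested. The top 100 of a FaWRKY71-RNAi library held 67, 70 and 69 of the 100 IDs in replicates 1 to 3, while that of a Control library held 99, 99 and 97. The Control libraries had chosen the list, so each was also set against the 100 chosen from the other 2 controls, of which it held 97, 99 and 96. The same exercise within FaWRKY71-RNAi gave 88, 78 and 96 for replicates 1 to 3. By mean CPM in the FaWRKY71-RNAi libraries, 69 of the 100 IDs stayed among the first 100, 91 among the first 200 and 98 among the first 500. Of the 69 that stayed, 42 were called lower and 4 higher. Of the 31 that left, 29 were lower, 19 of the 31 had a fitted fold of at least 2 downwards, and 22 were within the first 200. Another 31 IDs took their places, 16 of them from control ranks up to 200 and the farthest from rank 3613, and 26 of these were called higher. The IDs that stayed, left or entered were sorted by their FaWRKY71-RNAi values, which also enter the calls, so these counts are a description. They stand beside 24.2% of all IDs tested called lower and 30.1% called higher.

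The 100 IDs varied little among controls and widely among FaWRKY71-RNAi libraries. The SD over the mean of scaled CPM had a median of 12.96% in FaWRKY71-RNAi libraries and 2.22% in the Control libraries. It was larger in the FaWRKY71-RNAi libraries for 95 of the 100, against 67.2% of all IDs tested. It exceeded 20% for 30 IDs in FaWRKY71-RNAi libraries and for none in the Control libraries. Part of the spread of all IDs is counting noise, which the 100 nearly lack, so the next ranks give a closer comparison: ranks 101 to 200 had medians of 12.5% in FaWRKY71-RNAi libraries and 2.08% in the Control libraries. The median of the 100 was 6.95% without FaWRKY71-RNAi replicate 2, and the control median was 1.14% without Control replicate 3. Of the 37 IDs with a spread of at most 10% in the FaWRKY71-RNAi libraries, 31 were lower, 3 higher and 3 not called. The calls depend on this spread, so these counts too are a description.

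**Figure D4:**
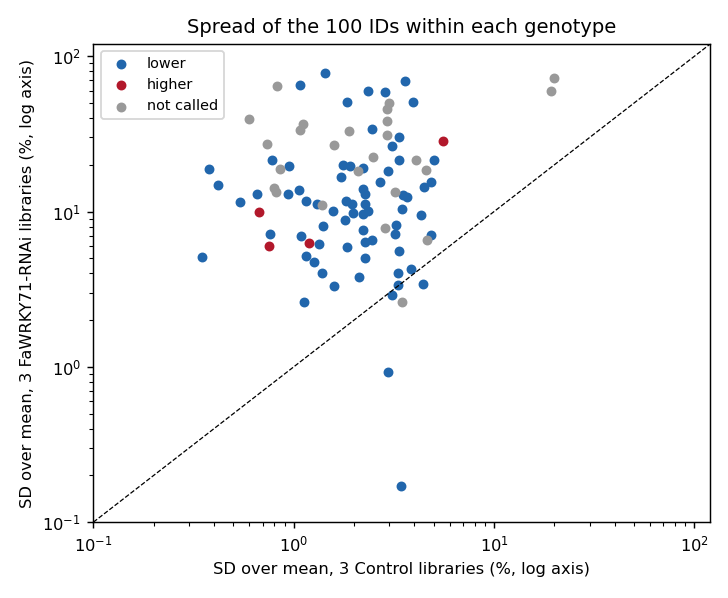
Each point is one of the 100 IDs, with its SD over mean among the 3 Control libraries (x axis, percent, log scale) and among the 3 FaWRKY71-RNAi libraries (y axis, percent, log scale), and the dashed line marks equal spread. All but 5 points lie above the line, and 2 IDs, FvH4_5g04430.1 and FvH4_2g01940.1, exceed 10% among the controls.

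Above 30%, the spread took 1 of 2 forms. All 20 such IDs were lowest in FaWRKY71-RNAi replicate 1 or in replicate 2. In 13 of them replicate 1 was lowest and replicate 2 highest, with replicate 3 between, and the highest library had 1.83 to 5.54 times the level of the lowest. Relative to the control mean, the medians of these 13 were -3.06, -0.88 and -1.62 on the log2 scale in replicates 1, 2 and 3, and 8 were called lower. In the other 7 replicate 2 was lowest, with medians of 0.30, -0.82 and -0.04 in replicates 1, 2 and 3, and FvH4_6g09970.1 alone of the 7 was called, as lower. Of the 21 IDs that fell at least 2-fold, 9 were among these 20, and in the other 12 replicate 1 was lowest in 8 and replicate 2 highest in 5. Over all IDs tested, replicate 1 was lowest in 39.6% and replicate 2 highest in 41.7%. These IDs were grouped by their own values, so the forms are a description.

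FvH4_5g04430.1 had the second largest spread. It had 395, 2189 and 1127 scaled CPM in the FaWRKY71-RNAi libraries, against 1144, 1246 and 1653 in the Control libraries. The FaWRKY71-RNAi libraries lay on both sides of the controls, which themselves varied by 19.97% (log2 fold change -0.12 ± 0.58 SE, edgeR adjusted p = 0.87). The sign changed with library size alone and without Control replicate 3 or FaWRKY71-RNAi replicate 1.

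**Figure D5:**
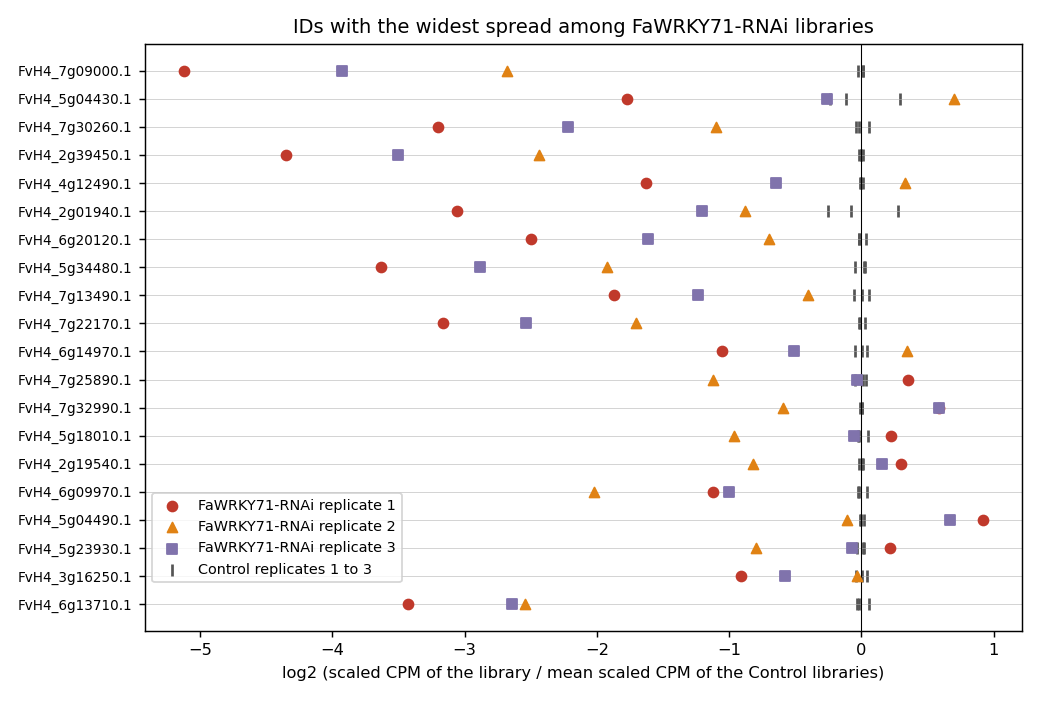
For the 20 IDs whose SD over mean exceeds 30% among the FaWRKY71-RNAi libraries, each library's log2 ratio to the mean of the Control libraries is drawn (x axis), with FaWRKY71-RNAi replicates as coloured symbols and Control replicates as grey ticks. In 13 IDs replicate 1 is leftmost and replicate 2 rightmost of the FaWRKY71-RNAi symbols, and in 7 replicate 2 is leftmost.

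The 100 IDs came from all 7 numbered series of the table, 29 of them from series 6 (18.9% of all IDs tested), and none from the series marked with a c. Lower calls made up 20 of the 29 IDs of series 6, where 26.1% of all IDs tested were called lower. They made up 6 of the 13 of series 5 (23.8% of all tested there) and 11 of the 12 of series 1 (20.7%). Over the 7 series, 20.7% to 26.1% of all IDs tested were lower, and the members' medians ran from -0.83 in series 2 to -0.29 in series 5 on the log2 scale. Only 1 pair of members stood next to each other in the table, FvH4_6g07360.1 and FvH4_6g07370.1, named after their values were seen. They were nearly alike, at 775 ± 95.4 and 772 ± 108 scaled CPM in FaWRKY71-RNAi libraries and 1128 ± 41.6 and 1169 ± 25.9 in the Control libraries (SD, n = 3 each). Both were lower, with log2 fold changes of -0.54 and -0.60 (edgeR adjusted p = 0.0039 and 0.0034).

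Counts were whole numbers in all 6 libraries for 75 of the 100 IDs, close to the 75.7% of all IDs tested. Of these 75, 50 were lower and 4 higher, with a median log2 fold change of -0.55. Of the 25 with fractional counts, 21 were lower and none higher, also with a median of -0.55. Of all IDs tested, whole or fractional, 24.2% were called lower and 30.1% higher. When IDs with whole values were fitted alone, these shares were 24.1% and 29.5%. Whether calls differ between whole and fractional IDs was not tested. A read that fits more than one ID may have been split, and the cultivated strawberry carries near-identical copies of many genes. Levels of single IDs may therefore combine several copies. The sources used here do not say how reads were assigned, so its part in these values was not tested.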

How the data were processed

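Messenger RNA of fruit receptacle was sequenced from 3 FaWRKY71-RNAi and 3 Control libraries, made by poly(A) selection with a stranded kit per the labels' protocols. The authors deposited 1 table of estimated counts per ID. Its values are mostly whole, with no sign of scaling, and its 6 value columns were all used. The sources used here do not name the aligner, the counting tool or the genome build, nor whether counting used strand. Columns were matched to samples by library name. A control column name also resembles another control's title, so replicate numbers of the controls, but not their genotype, are uncertain.

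CPM for the choice of IDs used the column sum of the unrounded counts. For the test, estimated counts were rounded, low IDs were removed with filterByExpr, and libraries were scaled by TMM. All IDs were fitted together in R 4.3.3 by the quasi-likelihood F test of edgeR 4.0.16, in its robust form, over all 6 libraries with no term but genotype, and p-values were adjusted by the Benjamini-Hochberg method. The standard error of a log2 fold change is its size divided by the square root of F. The fit was checked on simulated data with the same spread in both genotypes, so the check does not cover the unequal spread of these libraries. Shares of counts were compared with exact permutation tests in scipy 1.17.1. Reads carry no molecular identifiers, so counting error may be larger than given. Over the 100 IDs, the closest pair of libraries, Control replicates 1 and 2, differed with a chi-square of 6.17 per degree of freedom, where counting noise gives about 1, and each library was counted as a sample.

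Alternatives were other scalings, DESeq2 1.42.0, limma 3.58.1 (voom), other filters, a replicate block, left-out libraries and other ways to choose the list. Named IDs are the first 10, the 2 that rose and the 2 that fell most among called IDs with no overlap between the genotypes in scaled CPM, the 2 with the largest spread among FaWRKY71-RNAi libraries, and those at the edge of the list. The members and lists were chosen with earlier results of these data known. Gene lists by description could not be used, since 0 of the IDs matched the reference.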

Additional observations from a re-analysis of the deposited data

How the results depend on the processing

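The 75 called IDs of the 100, 71 lower and 4 higher, were 76, 72 and 4 with DESeq2, and 75, 72 and 3 with limma. Of all IDs tested, 24.9% were called lower and 28.0% higher with DESeq2, and 25.7% and 29.7% with limma. Higher calls changed by over 1.5 times with library size alone (7, median log2 fold change -0.40) and upper-quartile factors (2, median -0.66), which moved the median of all IDs to 0.18 and -0.07. With these scalings 35.0% and 26.7% of all IDs tested were called higher. Leaving out a library gave 2 to 11 higher and 61 to 75 lower calls, 63 to 86 in all, also where 1 Control library chose the list. The share of all IDs tested that was called moved with it, from 42.8% to 64.1%. The 86 came without FaWRKY71-RNAi replicate 2, at 64.1%, and the 63 without Control replicate 2, at 43.2%. IDs with whole values alone gave 47 lower calls of 75, where 24.1% of all such IDs tested were lower. A change of at least 1.5-fold left 45 calls, 44 lower and 1 higher, against 17.3% and 25.4% of all IDs tested. The first 50 IDs had 36 calls (35 lower, 1 higher) and the first 200 had 157 (141 lower, 16 higher). The 100 highest of the FaWRKY71-RNAi libraries had 42 lower and 30 higher calls (median -0.16), and those over all 6 libraries had 16 higher (median -0.41). Each of these lists, from the first 50 on, stands beside 24.2% of all IDs tested called lower and 30.1% called higher. 

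The difference in share of counts was -6.94 points of the scaled library size, -3.10 over IDs with whole values and -2.28 with each library's own 100 highest IDs. A FaWRKY71-RNAi library held on average 68.7% of the 100 in its top 100, 66% of the first 50 in its top 50 and 71.3% of the first 200 in its top 200. Range over mean had medians of 25.8% in FaWRKY71-RNAi and 4.09% in Control libraries. The median SD over mean ran from 6.95% to 17.7% in FaWRKY71-RNAi and from 1.14% to 2.42% in Control libraries with a library left out.

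The log2 fold change of FvH4_6g50700.1 turned positive with library size alone (0.056) and without FaWRKY71-RNAi replicate 2 (0.010), and ran down to -0.20 without another library. That of FvH4_5g04430.1 did so with library size alone (0.026) and without Control replicate 3 (0.038) or FaWRKY71-RNAi replicate 1 (0.28), and ran down to -0.83 without FaWRKY71-RNAi replicate 2. None of these was called. Among the IDs followed singly through the alternatives, FvH4_4g33940.1, FvH4_6g53780.1 and FvH4_5g06190.1 each lost their call in at least 1 that left out a library. The other members were not followed singly. Calls over the 100 fell from 75 to 63 without Control replicate 2, so more of the 100 lost theirs. The causes were not tested.

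With the replicate block 72 IDs were called, 68 lower and 4 higher, where 21.8% of all IDs tested were lower and 27.2% higher. Same-numbered libraries correlated at 0.11, -0.06 and 0.03 in their deviations over all IDs, and at 0.29, -0.09 and 0.53 over the 100. FaWRKY71-RNAi replicate 2 correlated best with Control replicate 3 on both. Not every pair was above 0.1 and the control numbers are uncertain, so the numbers were not used to pair the libraries.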
